A study of Mus musculus with 2 samples.

Results

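The genes described here encode the core of the spliceosome, the serine- and arginine-rich (SR) splicing factors and the heterogeneous nuclear ribonucleoproteins (hnRNPs), measured in mouse neural stem cells after knockdown of the histone variant H3.3. They are the 81 of 18510 listed genes whose symbol begins with Srsf, Hnrnp, Snrp, U2af, Sf3a, Sf3b, Prpf or Lsm followed by the number or letter of the family, chosen by name and not by their values; the imprinted Snrpn was left out. They fall into 11 SR genes, 21 hnRNP genes, 11 Snrp genes, 3 U2AF genes, 9 SF3A and SF3B genes, 13 PRPF genes and 13 LSM genes. One of the 81, Hnrnpa1l2-ps2, is annotated as a processed pseudogene and the others as protein coding. The knockdown group is neural stem cells from brains of CD-1 embryos at embryonic day 12 that were grown for 5 days and infected with a lentivirus carrying an H3.3 knockdown plasmid, and the control group is the same kind of cells infected with the control lentivirus. Both groups therefore share the strain, the stage, the culture and a viral infection. The sources used here do not give the knockdown sequence, the number of embryos behind each culture or the time after infection. Each group holds 1 library of polyadenylated RNA, so differences could not be checked against replicates and no p-values were computed.

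Introns are removed from pre-mRNA by the spliceosome, which is built on each intron from small nuclear ribonucleoproteins (snRNPs), each a small RNA bound by a ring of Sm or LSm proteins and by particle-specific proteins. The U1 snRNP recognises the start of the intron, the U2AF heterodimer its end, and the U2 snRNP with SF3A and SF3B the branch point. U4, U6 and U5 then join as the tri-snRNP, which carries some of the PRPF proteins. SR proteins bind exons and recruit this machinery, while hnRNPs coat the nascent transcript and often act against exon inclusion. In the developing brain, splicing programmes differ between dividing progenitors and neurons, and many of these factors are abundant in dividing cells.

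The knockdown library held 8702855 counts over genes and the control library 9184779. Levels are in CPM, each count scaled to 1e+06 counts, that is, divided by the total of its library, and ratios are knockdown over control. The interval of a ratio is the exact 95% interval of the 2 counts (Clopper-Pearson) and covers counting error only. Log2 ratios were computed with 0.5 count added to each library. H3f3b, which encodes H3.3, had 447 CPM in the knockdown library and 821 CPM in the control library (ratio 0.544, interval 0.523 to 0.566), and H3f3a, the other H3.3 gene, had 135 CPM and 209 CPM (ratio 0.646, 0.601 to 0.695). Both were lower in the library labelled knockdown. The neural stem cell markers were present in both libraries, with Nes at 462 CPM in the knockdown and 544 CPM in the control, and Sox2 at 439 CPM and 522 CPM. Of these 12 markers, 8 (66.7%) had an interval below 1 and 1 (8.33%), Fabp7, above it. Of all genes averaging 1 CPM or more, 27.0% had an interval below 1 and 22.9% above it. Among genes averaging 100 CPM or more, these shares were 39.0% and 36.1%. Sox1, Nr2e1 and Pax6 (25% of the 12) were lower at 1.5-fold, with ratios of 0.461, 0.476 and 0.536. Of all genes averaging 1 CPM or more, 8.23% were.

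The 81 genes were mostly a little lower in the knockdown library, and none was called at 2-fold. Of the 81, 70 (86.4%) had a log2 ratio below 0, against 52.9% of the 13989 genes that averaged 1 CPM or more over both libraries, a minimum that all 81 passed. Their median log2 ratio was -0.24, and that of the 13989 genes was -0.03. Summed over the 81 genes, the level was 12980 CPM in the knockdown and 15652 CPM in the control, or 1.30% and 1.57% of all counts. The quartiles of the 81 log2 ratios were -0.38 and -0.11, and 86.4% lay within 0.5 of 0, against 73.3% of the 13989 genes. Among genes averaging 100 CPM or more, that share was 87.8% of 41 members and 84.3% of all 2707 genes.

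**Figure D1:**
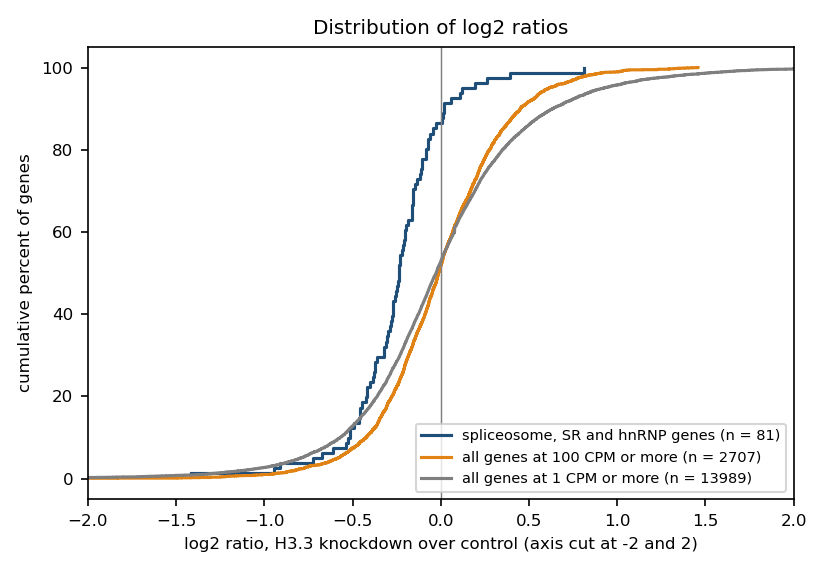
The lines give the cumulative percent of genes against the log2 ratio of H3.3 knockdown over control, for the 81 spliceosome, SR and hnRNP genes, for 2707 genes averaging 100 CPM or more and for all 13989 genes with at least 1 CPM. The line of the 81 genes lies to the left over most of the axis, with 86.4% of them below 0, against 51.9% and 52.9% in the other sets.

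A gene was called by a rule of size, which asks for an average of 1 CPM or more, a given fold and a counting interval that excludes 1. At 2-fold, none of the 81 was lower, against 2.61% of all genes, and none was higher, against 3.87%. At 1.5-fold, 5 of the 81 (6.17%) were lower, against 8.23% of all genes, and 1 (1.23%) was higher, against 9.03%. The share of lower genes is thus near the background, and the difference of the 81 genes from all genes is a shift of many members by a small amount. Without regard to the fold, the interval lay below 1 for 53 of the 81 (65.4%), against 27.0% of all genes, and above 1 for 4, against 22.9%. It included 1 for the other 24 genes. Abundant genes have narrower intervals, and the 81 had medians of 798 counts in the knockdown and 1022 in the control, against 258 and 285 for all genes with at least 1 CPM. Among genes with at least 100 CPM, the interval lay below 1 for 34 of 41 members (82.9%), against 39.0% of all 2707 such genes, and above 1 for 2, against 36.1%. Of the 41, 38 had a log2 ratio below 0, against 51.9% of the 2707. At 2-fold, none of the 41 was called, against 27 lower and 29 higher of the 2707. At 1.5-fold, 3 of the 41 (7.32%) were lower, against 4.95%, and none was higher, against 5.69%. Reads of some members cannot be assigned with certainty: 23 of the 81 match another annotated gene at 95% identity or more over at least 200 bases, and 28 overlap an exon of another gene. The 45 genes with either had the same median as the 36 with neither, -0.24. In the authors' deposited table, 1081 of the 18510 listed genes are marked as significant, and none of the 81 is among them. The fold and p-value limits behind that mark were not examined here.

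**Figure D2:**
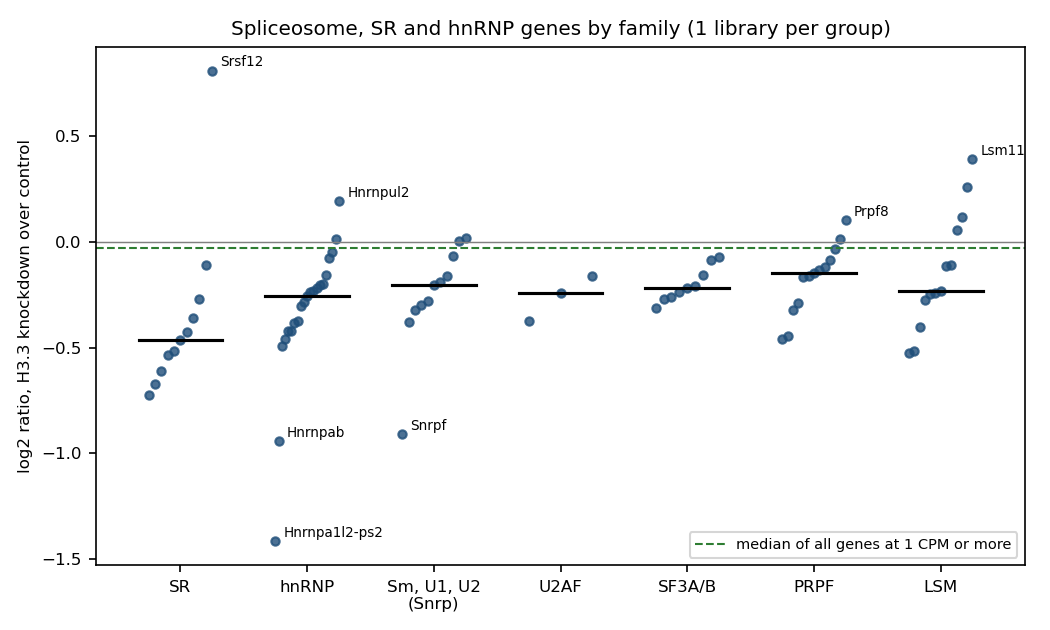
Each point is 1 gene, with its log2 ratio of H3.3 knockdown over control on the vertical axis and its family on the horizontal axis; the black bars are family medians and the dashed line is the median of all genes at 1 CPM or more (-0.03). All family medians lie below that line, the lowest that of the SR genes (-0.46) and the highest that of the PRPF genes (-0.15).

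Genes of the cell cycle and of neurons moved between the same 2 libraries. For comparison, 8.23% of all genes were lower at 1.5-fold and 9.03% higher. All 18 G1/S markers, such as the helicase subunit Mcm2 and the helicase loader Cdc6, were lower at 1.5-fold, with a summed level of 773 CPM in the knockdown and 1761 CPM in the control. Of 15 G2/M markers 14 were lower at 1.5-fold, with sums of 1220 CPM and 2214 CPM. Of 14 neuron markers 9 were higher at 1.5-fold and 1 was lower, with sums of 8386 CPM and 6132 CPM. The 12 neural stem cell markers summed to 5312 CPM and 5596 CPM with 3 lower at 1.5-fold, and the 12 oligodendrocyte markers to 2187 CPM and 2447 CPM with 6 lower and 1 higher. The 8 astrocyte markers had sums of 1556 CPM and 1463 CPM, with 2 lower and none higher. Markers of other cells were low. The 9 mesenchyme and pericyte genes summed to 105 CPM and 101 CPM, with 4 higher and 2 lower at 1.5-fold. The endothelial list summed to 13.3 CPM and 7.08 CPM, with 2 genes higher, and the microglia list to 5.75 CPM and 3.59 CPM, with 1 higher. Flt1, an endothelial marker, was listed at 0 in the control, the erythroid list had 1 listed gene at 3 counts and 1 count, and no other listed marker was at 0 in either library. The part of the cell cycle, of neurons or of any other cell type in the ratios of splicing genes was not tested. In bulk RNA, fewer cells of a type and less RNA per cell cannot be told apart.

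Of the 11 SR genes 10 (90.9%) had a counting interval below 1, against 27.0% of all genes. The SR genes had the lowest median of the 7 families, -0.46. Their summed level was 1488 CPM in the knockdown and 2044 CPM in the control, a ratio of 0.728. The regions from 250 bases before to 50 after the start of 4 of them are shown because they are the SR genes past 1.5-fold, 3 lower (Srsf1, Srsf7, Srsf9) and 1 higher (Srsf12). They are RefSeq sequences of GRCm38.p6, written 5′ to 3′ on the strand of the gene, for Srsf1 from chr11:88047123-88047422 on the plus strand, Srsf7 from chr17:80207256-80207555 on the minus strand, Srsf9 from chr5:115326927-115327226 on the plus strand and Srsf12 from chr4:33209022-33209321 on the plus strand. Capitals mark letters of the motifs named below, and Srsf9 and Srsf12 hold none of them.
Srsf1: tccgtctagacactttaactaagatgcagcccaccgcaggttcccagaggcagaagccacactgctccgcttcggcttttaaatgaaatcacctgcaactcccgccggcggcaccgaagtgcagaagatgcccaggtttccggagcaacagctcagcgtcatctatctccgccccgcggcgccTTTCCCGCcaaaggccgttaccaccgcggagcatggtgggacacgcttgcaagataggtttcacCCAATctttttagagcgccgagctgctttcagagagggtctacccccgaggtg
Srsf7: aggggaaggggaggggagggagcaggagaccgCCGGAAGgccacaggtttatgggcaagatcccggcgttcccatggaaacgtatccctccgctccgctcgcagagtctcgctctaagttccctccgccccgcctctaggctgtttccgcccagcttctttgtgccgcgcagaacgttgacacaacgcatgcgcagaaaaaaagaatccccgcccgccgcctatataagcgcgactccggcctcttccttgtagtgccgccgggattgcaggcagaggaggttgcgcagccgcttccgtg
Srsf9: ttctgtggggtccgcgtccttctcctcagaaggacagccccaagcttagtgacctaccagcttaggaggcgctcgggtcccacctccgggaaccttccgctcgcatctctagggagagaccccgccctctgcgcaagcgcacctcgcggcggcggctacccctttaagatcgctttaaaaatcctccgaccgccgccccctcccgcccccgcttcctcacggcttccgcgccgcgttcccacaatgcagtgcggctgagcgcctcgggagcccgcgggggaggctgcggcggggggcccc
Srsf12: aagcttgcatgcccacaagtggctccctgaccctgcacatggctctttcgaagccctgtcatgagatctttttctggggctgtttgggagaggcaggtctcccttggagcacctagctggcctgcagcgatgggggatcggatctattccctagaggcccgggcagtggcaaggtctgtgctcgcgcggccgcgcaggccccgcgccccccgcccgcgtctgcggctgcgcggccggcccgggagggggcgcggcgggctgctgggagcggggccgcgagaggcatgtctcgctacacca

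The motifs searched on both strands were CCGGAAG, the core of sites for ETS factors, TTTCGCGC, TTTGGCGC and TTTCCCGC, forms of the E2F site, the palindromic NRF1 consensus, and CCAAT, the NF-Y box. None of these motifs contains another. The window of Srsf1 holds 1 E2F form, which lies upstream of the start, and 1 CCAAT that spans the start, and that of Srsf7 holds 1 ETS core. RefSeq windows were matched for 69 of the 81 genes and 10507 of the genes with at least 1 CPM, taking for each gene the window nearest to its deposited start. That of Srsf12 is centred on a start 281 bases away, and others lie farther off. The farthest with a motif counted below were Prpf6 (9451 bases) and Sf3a2 (537) for CCGGAAG, and Hnrnpl (2349) and Hnrnpk (1226) for CCAAT. Those of Lsm14a (3610), Hnrnpm (1402) and Snrpa1 (1333) hold none of the motifs. CCGGAAG was found in 20 of the 69 (29.0%), against 17.9% of the 10507, and in 6 of 7 SF3A and SF3B genes. An E2F form was found in 5 (7.2%), against 3.6%, and CCAAT in 34 (49.3%), against 38.9%. Of these 34, 13 were among 19 hnRNP genes, including the pseudogene Hnrnpa1l2-ps2. The NRF1 consensus is in none of the 69 windows, against 2.1% of the 10507. The windows held a median of 25 CG dinucleotides in the 69 genes and 21 in the 10507. A match is a description of these letters, not of binding.

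Srsf9 (chromosome 5, 115327177 to 115333080, plus strand), which encodes a short SR protein, had 44.4 CPM in the knockdown and 73.3 CPM in the control, a ratio of 0.605 (0.533 to 0.687). Srsf7 (chromosome 17, 80200089 to 80207305, minus strand), whose protein carries a zinc knuckle beside its RNA recognition motif, had 104 CPM and 166 CPM (0.627, 0.577 to 0.682). Srsf1 (chromosome 11, 88047373 to 88053755, plus strand), the prototype of the family, had 276 CPM and 422 CPM (0.654, 0.621 to 0.688). These 3 were the SR genes lower by the 1.5-fold rule; Srsf1 shares 98 of its 5710 exon bases with Gm11508 on the other strand, and Srsf7 and Srsf9 share none. Srsf2 and Srsf6, further members that bind exonic enhancers, were just short of that fold, at 122 CPM against 177 CPM (0.689, 0.637 to 0.745) and at 235 CPM against 335 CPM (0.700, 0.662 to 0.741). Srsf3, the smallest SR protein, had 161 CPM in the knockdown and 222 CPM in the control (0.724, 0.676 to 0.776). Srsf10, whose dephosphorylated protein represses splicing, had 130 CPM and 175 CPM (0.744, 0.689 to 0.804), and Srsf11 had 153 CPM and 196 CPM (0.779, 0.725 to 0.836). The ratios nearest to 1 were those of Srsf4 (0.829, 0.711 to 0.965) and Srsf5 (0.927, 0.870 to 0.988).

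Srsf12 (chromosome 4, 33208991 to 33233340, plus strand) was the only SR gene above 0 and the only one of all 81 genes higher by the 1.5-fold rule. It had 190 counts in the knockdown and 114 in the control, or 21.8 CPM and 12.4 CPM (1.76, 1.39 to 2.24). It was also the SR gene with the lowest level per length in both libraries, at 6.94 and 3.94 reads per kilobase of exon per 1e+06 counts. The human protein counteracts other SR proteins in vitro. On the same scale, which uses the merged exons of GENCODE vM21, the order of the SR genes differed between the libraries. Srsf5 was first in the knockdown at 51.6, above Srsf6 at 48.8 and Srsf1 at 48.4. In the control it stood at 55.7, below Srsf1 at 73.9, Srsf6 at 69.6 and Srsf2 at 59.96.

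**Figure D3:**
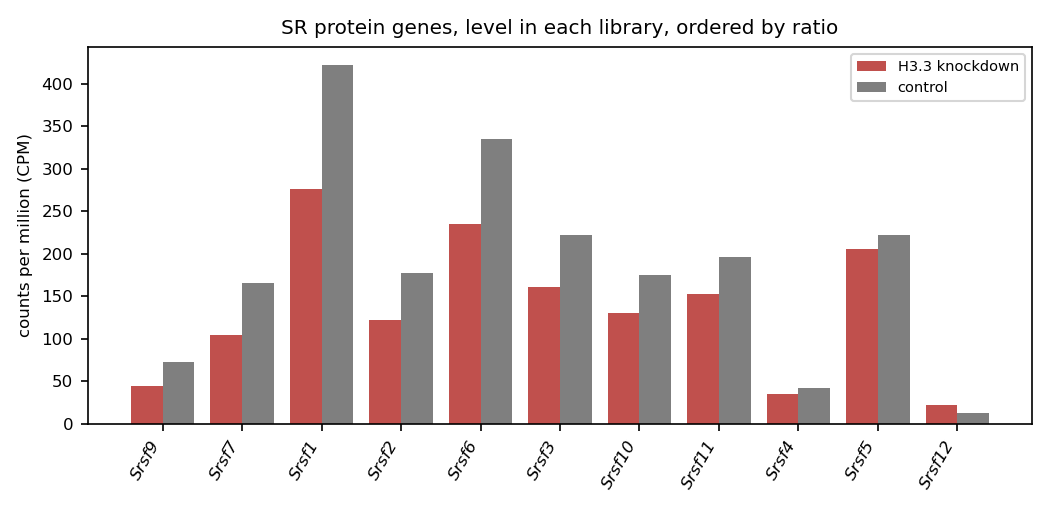
Bars give the level of each of the 11 SR genes in CPM, red for the H3.3 knockdown library and grey for the control library, with genes ordered from the lowest to the highest ratio. The knockdown bar is the shorter one for every gene except Srsf12 (21.8 CPM in the knockdown and 12.4 CPM in the control).

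Among the 21 hnRNP genes, 16 (76.2%) had an interval below 1 and 1 above it, against 27.0% and 22.9% of all genes. The median log2 ratio of the 21 genes was -0.25. Their sum was 6860 CPM in the knockdown and 8451 CPM in the control (ratio 0.812), which is more than that of the other 6 families together. Hnrnpab (chromosome 11, 51600100 to 51606847, minus strand), which encodes an A/B-type protein that binds single-stranded nucleic acids, stood apart. It had 2563 counts in the knockdown and 5202 in the control, or 295 CPM and 566 CPM (0.520, 0.496 to 0.545), and it was the hnRNP gene lower by the 1.5-fold rule. Per length it ranked 5 among hnRNP genes in the knockdown, at 106 reads per kilobase of exon per 1e+06 counts, and 3 in the control, at 204. Of its 2782 exon bases, 809 overlap exons of Phykpl on the other strand, which had 106 counts in the knockdown and 174 in the control. Whether counting used strand is not given in the sources used here, and the share of Phykpl reads in the count of Hnrnpab was not tested.

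The other abundant A/B proteins package nascent transcripts and compete with SR proteins for splice site choice. Hnrnpa1 had 500 CPM in the knockdown and 704 CPM in the control (0.710, 0.683 to 0.738). Hnrnpa2b1, the hnRNP gene with the most counts in the control, had 803 CPM and 1075 CPM (0.747, 0.725 to 0.771). Hnrnpa3 and Hnrnpa0 differed less, at 488 CPM against 572 CPM (0.853, 0.819 to 0.888) and at 498 CPM against 586 CPM (0.849, 0.815 to 0.883). Of these, Hnrnpa1 and Hnrnpa3 have 9 and 28 other annotated genes that match them at 95% identity or more over at least 200 bases, so their counts are uncertain. The pseudogene Hnrnpa1l2-ps2, which matches Hnrnpa1, had 5 counts in the knockdown and 15 in the control, and its interval includes 1 (0.352, 0.100 to 1.02).

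Hnrnpdl and Hnrnpd encode related proteins that bind AU-rich RNA, and they differed in ratio. Hnrnpdl had 236 CPM in the knockdown and 324 CPM in the control (0.728, 0.688 to 0.770), and Hnrnpd had 291 CPM and 324 CPM (0.897, 0.851 to 0.947). The intervals of the paralogs do not overlap. A similar gap lay between Hnrnpl (0.747, 0.710 to 0.785), whose protein binds CA-rich RNA, and its paralog Hnrnpll (0.949, 0.877 to 1.03). Among the genes for the G-run binding F and H proteins, Hnrnph1 and Hnrnph3 had 0.771 (0.741 to 0.803) and 0.767 (0.687 to 0.855) of the control level, Hnrnpf had 0.861 (0.787 to 0.942) and Hnrnph2 0.969 (0.886 to 1.06). Hnrnpul1 had 0.810 (0.767 to 0.855) and Hnrnpul2 1.15 (1.09 to 1.20), at 414 CPM in the knockdown and 361 CPM in the control. Hnrnpul2 was the only hnRNP gene with an interval above 1. Hnrnpc, whose protein binds uridine tracts and measures RNA length, had nearly equal levels of 412 CPM and 408 CPM (1.01, 0.965 to 1.06). Hnrnpk, a C-rich RNA binding protein, had 811 CPM and 933 CPM (0.870, 0.843 to 0.898), and the remaining Hnrnpm, Hnrnpr and Hnrnpu had ratios of 0.821, 0.839 and 0.871 with intervals below 1.

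**Figure D4:**
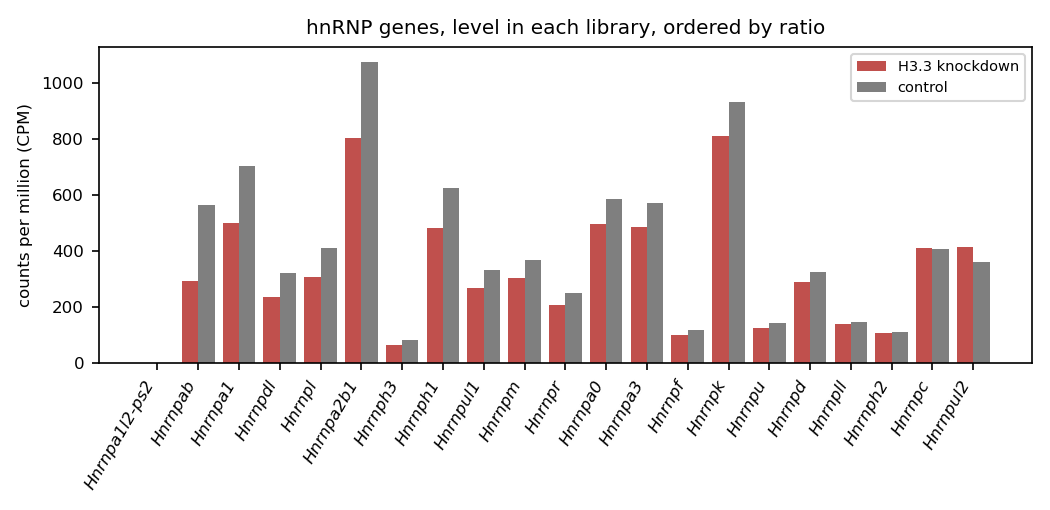
Bars give the level of each of the 21 hnRNP genes in CPM, red for the H3.3 knockdown library and grey for the control library, ordered from the lowest to the highest ratio. Hnrnpab has the lowest ratio of the protein-coding genes (0.520, with 295 CPM in the knockdown and 566 CPM in the control). The last pair, Hnrnpc and Hnrnpul2, is level or higher in the knockdown.

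The Snrp genes encode the Sm ring, which sits on U1, U2, U4 and U5 RNA, and proteins of U1 and U2. Their median log2 ratio was -0.20, with 7 of 11 intervals (63.6%) below 1 and none above, against 27.0% and 22.9% of all genes. In the ring, Snrpb, whose product exists as B and B′ forms, had 118 CPM in the knockdown and 145 CPM in the control (0.814, 0.749 to 0.883). Snrpe had 0.824 (0.722 to 0.940) of the control level, Snrpd1 0.868 (0.768 to 0.981) and Snrpd2 0.877 (0.793 to 0.971). The intervals of Snrpd3 (0.957, 0.859 to 1.07) and Snrpg (1.01, 0.862 to 1.19) included 1. Snrpf (chromosome 10, 93583029 to 93589706, minus strand) was the one past 1.5-fold, with 30 counts in the knockdown and 60 in the control (0.528, 0.329 to 0.831). Its level per length, 4.004 and 7.59 reads per kilobase of exon per 1e+06 counts, was far under those of the other 6 ring genes, which ran from 21.4 to 59.7 in the knockdown and from 22.0 to 73.3 in the control. Snrpf matches 1 other gene at 95% identity or more. Of its 861 exon bases, 735 overlap exons of other genes on the other strand, among them Ccdc38. Its count and its level per length are therefore uncertain. For the U1 proteins, Snrpa had 0.769 (0.697 to 0.848) and Snrpc 0.894 (0.789 to 1.01) of the control level. For the U2 proteins, Snrpb2 had 0.799 (0.706 to 0.904) and Snrpa1 1.00 (0.851 to 1.18).

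The U2AF, SF3A and SF3B genes act at the 3′ end of the intron and the branch point. All 3 U2AF genes and all 9 SF3A and SF3B genes had log2 ratios below 0, against 52.9% of all genes. The interval lay below 1 for 2 of the U2AF (66.7%) and 7 of the SF3 genes (77.8%), against 27.0% of all genes. U2af1, which contacts the AG at the 3′ splice site, had 46.8 CPM in the knockdown and 60.6 CPM in the control (0.771, 0.677 to 0.878). U2af2, which binds the polypyrimidine tract, had 228 CPM and 254 CPM (0.896, 0.844 to 0.952). U2af1l4, a paralog of U2af1, had 16.8 CPM and 19.8 CPM (0.847, 0.676 to 1.06). Of its 1656 exon bases, 1094 overlap exons of Gm49396 and Psenen, so its count is uncertain. Psenen had 233 counts in the knockdown and 256 in the control, and U2af1l4 had 146 and 182. The log2 ratios of the SF3A and SF3B genes ran from -0.31 to -0.07. The lowest was Sf3b2, at 388 CPM in the knockdown and 482 CPM in the control (0.806, 0.770 to 0.843). Sf3b1, the scaffold that holds the branch point, had 412 CPM and 437 CPM (0.942, 0.900 to 0.986), and Sf3a3 was nearest to 1 (0.953, 0.848 to 1.07).

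The PRPF genes had a median log2 ratio of -0.15 and a summed ratio of 0.945. Of their 13 intervals 6 (46.2%) lay below 1 and 1 above, against 27.0% and 22.9% of all genes. Prpf8, the U5 protein at the catalytic centre and the most abundant PRPF gene per length, was slightly higher, at 623 CPM in the knockdown and 579 CPM in the control (1.08, 1.04 to 1.12). The other tri-snRNP genes had ratios below 1, from Prpf31 (0.820, 0.730 to 0.919) to Prpf6 (0.921, 0.842 to 1.01), with Prpf3 at 0.891 and Prpf4 at 0.894, and of these only Prpf31 had an interval below 1. The lowest were Prpf38b (0.728, 0.664 to 0.797), at 91.7 CPM in the knockdown and 126 CPM in the control, and Prpf40b, related to a yeast U1 protein (0.734, 0.650 to 0.829). Prpf38a, whose product is a further PRP38-domain protein, was nearer to 1 than Prpf38b, at 0.979 (0.859 to 1.12). The counting intervals of this pair, chosen after values were seen, do not overlap. Prpf39, also related to a yeast U1 protein, had 0.799 (0.700 to 0.911) of the control level. Of its 11967 exon bases, 599 overlap exons of Fkbp3 on the other strand. Prpf39 had 402 counts in the knockdown and 531 in the control, and Fkbp3 had 409 and 878. The share of Fkbp3 reads in the count of Prpf39 was not tested, so that count is uncertain. Prpf19, a ubiquitin ligase needed for activation, had 0.912 (0.858 to 0.970), the kinase gene Prpf4b 0.903 (0.838 to 0.973) and the second-step factor Prpf18 1.01 (0.893 to 1.14).

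The LSM genes divide by function into 2 groups, and the summed level of both was lower in the knockdown. Of the 13 intervals 5 (38.5%) lay below 1 and 1 above, against 27.0% and 22.9% of all genes. Lsm2 to Lsm8 form the ring on U6 RNA, and the log2 ratios of all 7 were below 0 (median -0.27), against 52.9% of all genes. The interval lay below 1 for 3 of the 7 (42.9%), against 27.0% of all genes. Their summed level was 176 CPM in the knockdown and 220 CPM in the control. The lowest were Lsm2 (0.693, 0.563 to 0.851), Lsm8, which distinguishes the nuclear ring (0.700, 0.583 to 0.839), and Lsm6 (0.757, 0.656 to 0.874). The intervals of Lsm3, Lsm4, Lsm5 and Lsm7 included 1, with ratios from 0.827 to 0.925. The 6 other LSM genes had a median of 0.09, with 2 intervals below 1 and 1 above. Their sums were 412 CPM in the knockdown and 426 CPM in the control (ratio 0.967). Lsm10 and Lsm11 belong to the U7 snRNP, which forms the 3′ ends of replication-dependent histone mRNA. Lsm11 had 402 counts in the knockdown and 323 in the control (1.31, 1.13 to 1.53), and Lsm10 had 84 and 74 (1.20, 0.866 to 1.66). Lsm1, which replaces Lsm8 in the cytoplasmic decay ring, had 1.04 (0.864 to 1.25) of the control level, and Lsm12 had 1.09 (0.956 to 1.24). The P-body genes Lsm14a and Lsm14b had 0.852 (0.783 to 0.927) and 0.928 (0.863 to 0.999). The difference between the 2 LSM groups was not tested.

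**Figure D5:**
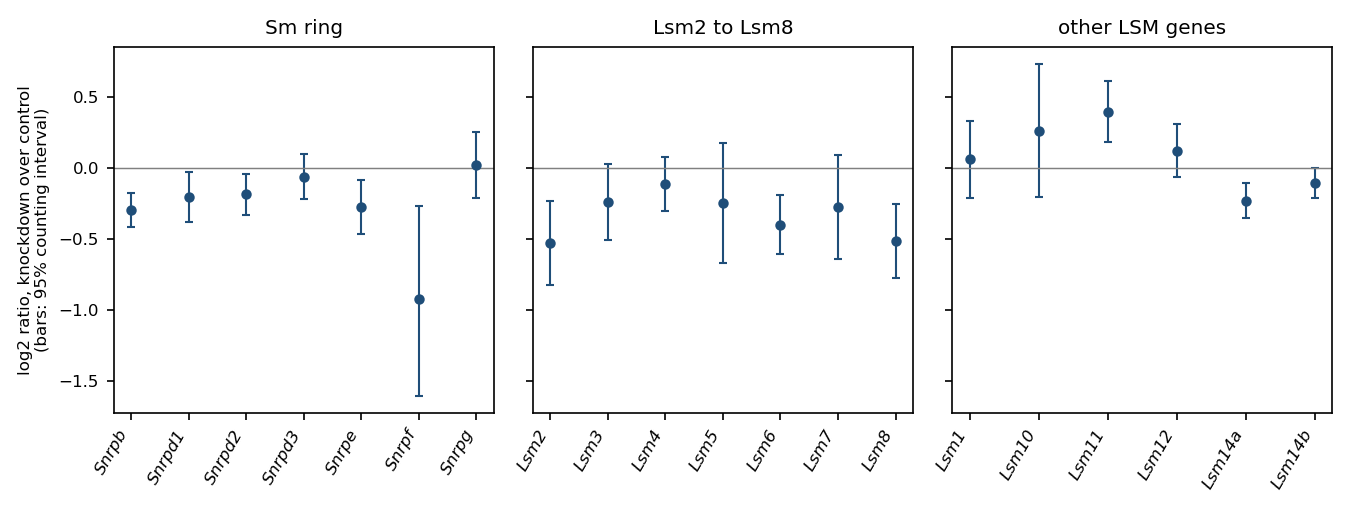
Points give the log2 ratio of H3.3 knockdown over control without added counts for genes of the Sm ring, of the U6 ring Lsm2 to Lsm8 and of the other LSM genes, and bars give the 95% counting interval. Snrpf, with 30 counts in the knockdown and 60 in the control, has the widest interval of the Sm ring, and Lsm11 is the gene whose whole interval lies above 0.

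Other splicing genes, from lists made without the rule on names, had medians between -0.24 and -0.12. For comparison, 8.23% of all genes were lower at 1.5-fold and 9.03% higher. Of 30 further snRNP-associated genes none was past 1.5-fold, with a median of -0.12. The most abundant were Sf1, the branch point binding protein, at 251 CPM in the knockdown and 336 CPM in the control (0.748, 0.707 to 0.790), and Snrnp200, the helicase that works with Prpf8, at 374 CPM and 334 CPM (1.12, 1.07 to 1.18). Of 26 genes of the Prp19 complex and the catalytic steps, 25 had log2 ratios below 0 (median -0.20), and 1 was lower at 1.5-fold, Crnkl1 (0.646, 0.562 to 0.742). The 23 genes of the exon junction complex and splicing coactivators had a median of -0.21 with none past 1.5-fold, among them Srrm2, a large SR-related protein of the spliceosome, at 671 CPM and 925 CPM (0.725, 0.702 to 0.750), and Son at 434 CPM and 544 CPM (0.798, 0.764 to 0.832). The 25 other abundant RNA-binding protein genes had -0.24, also with none past 1.5-fold, and the paraspeckle proteins Sfpq and Nono had 0.679 (0.654 to 0.706) and 0.802 (0.771 to 0.834) of the control level.

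The lists of genes that act on SR proteins or assemble snRNPs had similar medians. The 10 tested genes for kinases, phosphatases and the importer of SR proteins had a median of -0.12 and none past 1.5-fold, with the kinase Srpk2 at 193 CPM in the knockdown and 197 CPM in the control (0.977, 0.913 to 1.04) and the phosphatase Ppm1g at 0.989 (0.918 to 1.07). The 17 tested snRNP assembly genes had a median of -0.14. At 1.5-fold, none of them was higher, against 9.03% of all genes, and 3 (17.6%) were lower, against 8.23%. They were Gemin5, which recognises snRNA for the SMN complex (0.601, 0.517 to 0.697), Gemin6 of the same complex, with 25 counts in the knockdown and 45 in the control (0.586, 0.345 to 0.977), and Kpnb1, the importin beta that carries snRNPs and many other cargoes into the nucleus, at 290 CPM and 446 CPM (0.649, 0.618 to 0.683). The 21 neuronal splicing regulators went both ways (median -0.16), with 4.76% lower and 9.52% higher at 1.5-fold, near the shares of all genes. Ptbp1, which represses neuronal exons in progenitors, was the gene lower at 2-fold, with 103 CPM in the knockdown and 236 CPM in the control (0.435, 0.402 to 0.471), and Rbfox3 (1.55, 1.35 to 1.78) and Celf4 (1.51, 1.43 to 1.59), which are expressed in neurons, were higher at 1.5-fold. Celf4 lay at the edge of the rule and was not past it with DESeq2 size factors, where its log2 ratio was 0.58.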

How the data were processed

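RNA-seq of 1 H3.3 knockdown and 1 control library was used. Per the labels' protocols, 2 µg of total RNA was enriched for polyadenylated RNA and reverse transcribed with random primers. Tools named in the submitters' processing notes are HTSeq 0.6.0, TopHat2 2.0.12 and Bowtie 1.0.1; the sources used here give no settings, strand use or genome build. The deposited counts are whole reads per gene, not normalized. The deposited table also holds the authors' CPM, their fold change (a ratio of CPM), the log2 of that ratio, and p-values from a test that is not named; these were used only to count genes marked as significant.

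Symbols were found for 18423 of 18510 Ensembl IDs. The depth of 8702855 and 9184779 counts puts the limit that a count of 0 allows, 3 counts, at 0.345 CPM in the knockdown and 0.327 CPM in the control. The labels name no molecular identifiers, so PCR copies are not independent and intervals and limits cover counting error only. Gene positions are the deposited ones, and for 63 of the 81 they equal GENCODE vM21 (GRCm38); that annotation gave exon lengths and overlaps, and BLAST+ 2.17.0 on its transcripts gave near-identical copies. Sequences came from RefSeq. Calculations used Python 3.11.15 and scipy 1.17.1. Alternatives used TMM factors of edgeR 4.0.16 and size factors of DESeq2 1.42.0, other added counts and other minima. On simulated counts of 18510 genes with counting error alone, the 1.5-fold rule called 23 of 50 genes changed 1.5-fold and 50 of 50 changed 2-fold, and 5 of 10040 unchanged genes with at least 10 CPM.

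The members and the lists were chosen with earlier results of these data known. Named are genes past 1.5-fold, the highest, lowest and most abundant of each family, and of each other splicing list up to 4 genes past 1.5-fold or its 2 most abundant. The remaining members are given by value or range. The motifs, Phykpl, Ccdc38, Fkbp3, Gm49396, Psenen, the marker genes named singly and the paralog pairs were chosen after values were seen. The values of 1 member are not reported here. RNA splicing annotations are those of the deposited table.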

Additional observations from a re-analysis of the deposited data

How the results depend on the processing

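No paired analysis was possible because each group holds 1 library. TMM scaling, DESeq2 size factors, totals without mitochondrial genes, smaller and larger added counts, no minimum and minima of 10 or 100 CPM left the median log2 ratio of the family genes between -0.25 and -0.22, and that of all genes between -0.05 and 0.01. Of 176 recomputed counts and medians, 175 stayed close to the reported value and none changed sign; close means within 1.5 times a count, or, for a median, within the 95% binomial order interval of the list's own genes, which is wide for short lists. Some medians within it still moved by over 1.5 times. Without the genes that share sequence, LSM had -0.11 (9 genes, -0.23 before) and the Snrp genes -0.31 (2 genes, -0.20 before). At 100 CPM, snRNP assembly had -0.35 (3 genes, -0.14 before), SR kinases and phosphatases -0.02 (5 genes, -0.12 before) and the further snRNP genes -0.22 (11 genes, -0.12 before). Means in place of medians were -0.14 for LSM, -0.22 for snRNP assembly and -0.04 for neuronal regulators (median -0.16). The exception among the 176 was the count of members lower at 1.5-fold, which was 2 of 36 in place of 5 of 81 when the 45 genes that share sequence or exons with another gene were left out, a choice made after seeing the data; fewer genes enter that count, and Srsf1, Hnrnpab and Snrpf are among those left out. The median of the 36 was -0.24. Among the named genes, Celf4 lost its 1.5-fold call with DESeq2 size factors (log2 ratio 0.58), and Snrpf and Gemin6 fell under the minimum of 10 CPM, which left 4 members and 2 assembly genes lower at 1.5-fold. The spread between cultures is unknown and may exceed the small ratios described here.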

Other observations

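The deposited table annotates 260 genes to RNA splicing or to mRNA splicing via the spliceosome, and 60 of these are among the 81 genes described above. Of the other 200, 163 had at least 1 CPM. Their median log2 ratio was -0.21, and 127 of the 163 (77.9%) were below 0, against 52.9% of all genes. By the 1.5-fold rule 8 were lower and 2 higher, or 4.91% and 1.23%, against 8.23% and 9.03% of all genes. At 2-fold 4 of the 163 were lower and none higher, against 2.61% and 3.87% of all genes. The 4 lower at 2-fold were Ptbp1, Usb1, an exonuclease that processes the end of U6 RNA, with 101 counts in the knockdown and 230 in the control (ratio 0.463), the RNA helicase Ddx39, with 219 and 493 (0.469), and Rbm38, an RNA-binding protein induced by p53, with 190 and 406 (0.494). The 2 higher at 1.5-fold were Rbfox3 and Brdt, a bromodomain gene known from the testis, with 68 counts in the knockdown and 41 in the control (1.75). These genes were named after their values were seen.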
